A study of Mus musculus with 2 samples.

Results

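The Wnt pathway genes examined here were 52 mouse genes for ligands, R-spondins, receptors, secreted inhibitors, the destruction complex and nuclear effectors. A region of the authors' deposited list was taken as belonging to a gene when it overlapped the RefSeq gene body or 5 kb on either side. By this rule 119 of the 34139 regions belonged to the 52 genes, and each of the 119 fell at 1 member only. The list compares the DNA methylation of 2 libraries of cultured C57BL/6 adipose progenitors, 1 of CD137+ cells and 1 of PDGFRα+ cells (titled CD140). Both libraries carry the label of treatment with DEX (dexamethasone, a synthetic glucocorticoid), so that treatment is shared and cannot be read from their difference. The cells were isolated by magnetic sorting from adipose depots that the labels abbreviate as SAT or VAT, grown, and exposed to an adipogenic cocktail. The labels do not say which depot gave which library, how many animals were pooled, or their age or sex.

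Each region has a position, a width and a signed score, and the list defines neither the score nor its sign. Should it be the first-named library (PDGFRα+) minus the second, a positive score stands for higher methylation in PDGFRα+ cells. Because this is not stated, scores are called positive or negative below. The score is the authors' own value, used to describe, rank and filter regions within the list. Read depth and methylation levels are unknown, and each group has 1 library, which leaves the spread between replicates unmeasured. No test was therefore made, and Wilson 95% intervals on shares cover only the counting of regions. They treat each region as independent, although neighbouring regions often shared their sign, and so are too narrow. A bulk library averages over its cells, so a change in the mix of cells and a change within cells cannot be told apart. Surface identity could not be checked against expression. Of the sorted antigens' genes, Pdgfra had 1 positive and 1 negative region and Tnfrsf9, which encodes CD137, had none.

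Wnt ligands are secreted lipid-modified glycoproteins that bind Frizzled receptors together with the co-receptors LRP5 or LRP6. Binding halts a destruction complex built on Axin and APC, so that β-catenin accumulates, enters the nucleus and works with TCF/LEF factors. R-spondins, acting through LGR receptors, strengthen the signal, whereas SFRP and WIF1 proteins bind the ligands, and DKK1 and DKK2 bind the co-receptors. In adipose tissue, β-catenin signalling is known for restraining the differentiation of precursors into fat cells.

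RefSeq promoter windows (250 bases before to 50 after a transcription start, GRCm38.p6) were listed for 36 of the 52 members, 45 windows in all. The windows of 6 genes whose regions are described below are shown because those genes hold the strongest scores or long runs of regions of mainly 1 sign. Each reads 5′ to 3′ on the strand of its gene, and capitals mark CpG dinucleotides, the sites at which mammalian DNA is mainly methylated.
Wnt6, chr1:74771642-74771941, plus strand: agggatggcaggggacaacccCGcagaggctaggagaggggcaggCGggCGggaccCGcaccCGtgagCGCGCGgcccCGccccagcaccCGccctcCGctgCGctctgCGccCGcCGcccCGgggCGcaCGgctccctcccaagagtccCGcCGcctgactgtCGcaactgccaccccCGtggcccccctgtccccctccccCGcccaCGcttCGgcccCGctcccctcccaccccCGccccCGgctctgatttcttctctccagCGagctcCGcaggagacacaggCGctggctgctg
Wnt1, chr15:98789607-98789906, plus strand: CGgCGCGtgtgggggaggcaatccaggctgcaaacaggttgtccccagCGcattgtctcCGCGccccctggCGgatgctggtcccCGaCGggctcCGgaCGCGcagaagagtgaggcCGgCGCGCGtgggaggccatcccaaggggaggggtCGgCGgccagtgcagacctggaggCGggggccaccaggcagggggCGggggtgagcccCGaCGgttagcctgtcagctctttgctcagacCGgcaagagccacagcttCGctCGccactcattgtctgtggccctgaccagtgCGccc
Fzd1, chr5:4758167-4758466, minus strand: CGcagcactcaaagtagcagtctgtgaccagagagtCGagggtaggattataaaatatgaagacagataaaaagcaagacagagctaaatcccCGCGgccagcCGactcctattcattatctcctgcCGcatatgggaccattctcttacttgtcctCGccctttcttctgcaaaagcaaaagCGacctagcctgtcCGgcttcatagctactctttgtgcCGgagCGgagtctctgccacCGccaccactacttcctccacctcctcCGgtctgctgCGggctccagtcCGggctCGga
Fzd4, chr7:89404116-89404415, plus strand: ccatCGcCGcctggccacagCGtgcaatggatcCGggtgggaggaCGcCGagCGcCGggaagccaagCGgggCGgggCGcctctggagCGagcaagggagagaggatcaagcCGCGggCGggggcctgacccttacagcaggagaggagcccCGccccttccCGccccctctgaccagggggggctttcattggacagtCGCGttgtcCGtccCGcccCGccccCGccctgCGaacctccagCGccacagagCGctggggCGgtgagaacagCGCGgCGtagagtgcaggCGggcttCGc
Axin2, chr11:108920099-108920398, plus strand: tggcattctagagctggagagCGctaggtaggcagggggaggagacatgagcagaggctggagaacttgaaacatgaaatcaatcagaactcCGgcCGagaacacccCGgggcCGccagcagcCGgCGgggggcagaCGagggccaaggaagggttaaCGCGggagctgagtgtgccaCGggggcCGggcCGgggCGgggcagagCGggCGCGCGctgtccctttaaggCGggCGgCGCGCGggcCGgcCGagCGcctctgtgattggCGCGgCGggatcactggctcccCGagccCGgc
Tcf7l2 (first listed start), chr19:55741560-55741859, plus strand: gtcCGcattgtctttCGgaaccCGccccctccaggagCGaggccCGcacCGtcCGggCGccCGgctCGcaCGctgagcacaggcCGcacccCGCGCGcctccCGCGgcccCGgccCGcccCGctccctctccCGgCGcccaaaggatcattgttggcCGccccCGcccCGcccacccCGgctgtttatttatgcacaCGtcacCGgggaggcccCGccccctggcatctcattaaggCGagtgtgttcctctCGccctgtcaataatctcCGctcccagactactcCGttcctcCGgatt

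No region overlapped any of these 6 windows or the other member windows. The count was 0 of 45, which allows a share of up to 6.67% when 3 counts of 45 are taken as the upper limit. Over all 32851 listed windows 1.21% overlapped a region, so the members cannot be told apart from other genes in this. CpG content was high in the member windows, with a median of 26 CpG per window against 7 over all windows. The 6 printed windows held 31 (Wnt6), 26 (Wnt1), 16 (Fzd1), 32 (Fzd4), 31 (Axin2) and 34 (Tcf7l2) CpG. Of the member windows 29 held 20 or more CpG, and among all windows that rich in CpG 0.873% overlapped a region. The regions at Wnt genes thus lay outside these windows.

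Of the 52 members 34 had at least 1 region, against 35.1% of 21887 protein-coding genes. The members were chosen with earlier results of these data known, so the shares below are not an independent comparison with other genes. A positive region was found at 27 members (16.9% of protein-coding genes) and a negative one at 21 (27.8%). Only positive regions were found at 13 members, only negative ones at 7, and both at 14. Of the 119 regions 70 were positive, or 58.8% (49.8 to 67.3), whereas 32.6% of the whole list was positive. The plot of scores by member shows the spread, from -400 at Wnt1 to 459 at Wnt6.

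**Figure D1:**
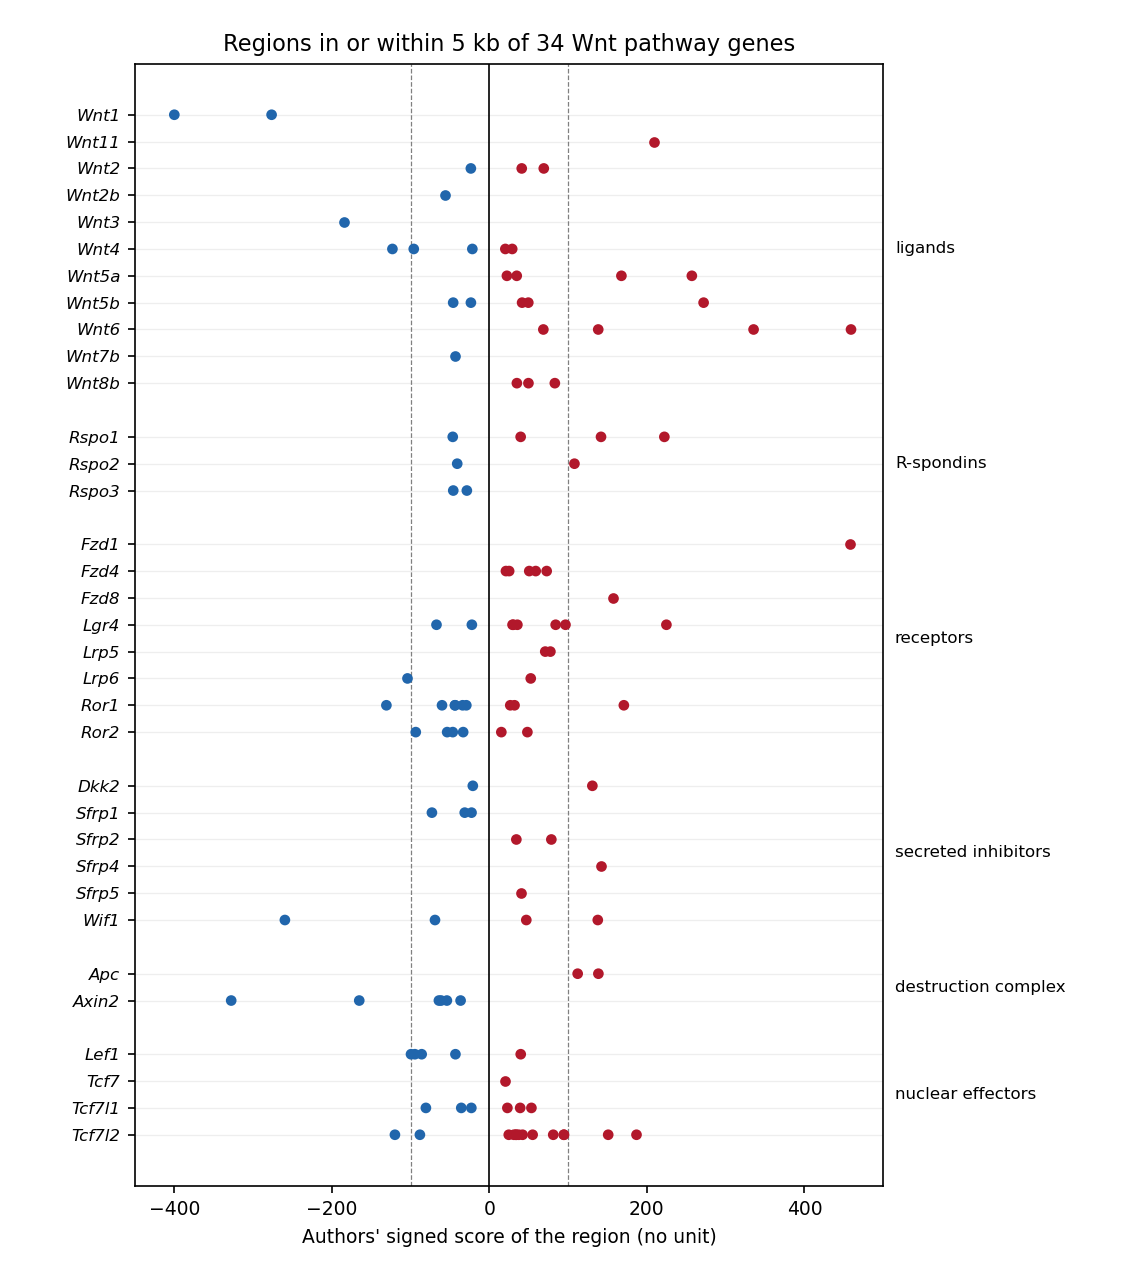
Each point is 1 region of the authors' list, placed by its signed score (x axis, no unit) in the row of the gene it belongs to, with genes grouped by role. Red points are positive and blue points negative, and dashed lines mark scores of -100 and 100. The 3 most extreme members are Wnt6 (459), Fzd1 (457) and Wnt1 (-400).

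An absolute score of 100 or more was reached at 20 members, against 10.8% of protein-coding genes. Positive regions of that size lay at 15 members (4.21% of protein-coding genes) and negative ones at 8 (7.78%). Among the 119 regions 31 were that strong, or 26.1%, against 15.5% of the whole list. Member regions had a median width of 136 bp and the list 112 bp. The median absolute score per base pair was 0.445 at members and 0.430 over the list, so member regions were wider, with a score per base pair close to that of the list.

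Long genes collect more regions, and gene length was therefore set beside these counts. Regions of either sign were found at 7 of 14 members up to 10 kb long (13.9% of genes of that length), 6 of 10 from 10 to 30 kb (28.7%), 11 of 18 from 30 to 100 kb (51.9%) and 10 of 10 longer ones (86.2%). Of the 14 shortest members, 6 had a positive region and 1 a negative one, where 5.31% and 9.36% of protein-coding genes of that length did. The 6 were the receptor genes Fzd1, Fzd4 and Fzd8 and the inhibitor genes Sfrp2, Sfrp4 and Sfrp5. From 10 to 30 kb, 5 of 10 members had a positive region and 3 a negative one, beside 10.7% and 20.6% of genes. From 30 to 100 kb the counts were 6 and 9 of 18, beside 23.1% and 41.1%. Above 100 kb they were 10 and 8 of 10, beside 58.1% and 78.9%. In each length class the members' share with a positive region stood above that of all genes, and the share with a negative region stood nearer to it. Median gene length was 24.8 kb for ligands, 7.19 kb for receptors, 24.0 kb for secreted inhibitors and 114 kb for nuclear effectors. Counts of genes with a region therefore do not compare like with like between roles.

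The 18 ligand genes had 30 regions at 11 members, where 35.1% of protein-coding genes had a region. Of the 30 regions 19 were positive (63.3%, 45.5 to 78.1). Wnt6, one of the ligand genes known for holding back fat cell formation in culture, had 4 regions, all positive. Of these 3 stood in a run of 2.15 kb at the far end of the gene, with scores of 335, 138 and 459 at 10.9, 11.9 and 12.6 kb past the listed start. The last, of 353 bp at chr1:74784322-74784674, had the highest score of any member and ranked 122 in the list by absolute score. The 4th region scored 68.5 and lay 1.02 kb upstream of the start. Its neighbour Wnt10a, next on the chromosome, had no region within 5 kb, and the nearest one was this strongest Wnt6 region, 7.35 kb away.

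Wnt1, a founding member of the family with a short gene of 3.97 kb, ran the other way. Its 2 regions scored -277 (297 bp, chr15:98791678-98791974) and -400 (289 bp, chr15:98792728-98793016), and lay 1.97 and 3.02 kb past the start. Among member regions the -400 was the lowest score and the -277 the third lowest, after -328 at Axin2. Wnt10b, the ligand best known for that restraint on fat cells, lies beside Wnt1 and had no region. Its nearest was the -277 region of Wnt1, 13.5 kb away.

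The genes of the ligands WNT5A and WNT5B, which act largely without β-catenin, had their strongest regions on the positive side. Wnt5a had 4 regions within 3.35 kb, all positive, with scores of 34.7, 22.3, 257 and 168. The strongest spans 356 bp at chr14:28509078-28509433 inside the gene. Wnt5b had 5 regions of both signs, which scored 49.4, -46.0, 272, -23.5 and 41.5 in order along the chromosome. The 272 region (385 bp, chr6:119480838-119481222) also lies in the body of Fbxl14, and so cannot be given to Wnt5b alone. Wnt5a thus stood uniform where Wnt5b was mixed.

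Wnt11, another ligand of the β-catenin-independent branch, had 1 region of 505 bp with a score of 209 (chr7:98836946-98837450), placed between its 2 listed starts. Wnt3 had 1 region of -185 (179 bp, chr11:103811474-103811652), 37.4 kb past the start. Wnt4 had a faint positive region (29.0) 1.32 kb upstream of its start, and inside the gene a region of -96.0 next to one of 20.3. Beyond the gene's far end it had regions of -21.6 and -123 (the latter 248 bp, chr4:137301797-137302044). The signs at Wnt4 were thus positive upstream and negative downstream of the gene.

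The remaining ligand genes with regions held no strong score. Wnt8b had 3 positive regions at its far end (34.9, 83.1 and 49.6), Wnt2 had 41.1 and 69.1 near its start and -23.5 farther in, Wnt2b had -56.9 and Wnt7b -43.2. No region lay within 5 kb of Wnt3a, Wnt7a, Wnt9a, Wnt9b, Wnt10a, Wnt10b or Wnt16. Among these the nearest region was 122 kb away at Wnt7a and 62.5 kb away at Wnt3a.

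The 3 R-spondin genes each had regions (35.1% of protein-coding genes did), 4 positive and 4 negative. Rspo1 had a pair past its start (39.7 and 222, at 3.24 and 3.89 kb) and another at its far end (142 and -46.5). The 222 region spans 354 bp at chr4:124990145-124990498. Rspo2 had 108 (315 bp, chr15:43059126-43059440) and -40.8, and Rspo3, the family member tied to body fat distribution in human genetics, had -28.6 and -45.9. Rspo1 and Rspo2 each held a strong positive region, and Rspo3 had weak negative ones.

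The 15 receptor genes had 34 regions at 8 members, where 35.1% of protein-coding genes had a region. Of the 34 regions 21 were positive (61.8%, 45.0 to 76.1). Frizzled genes encode the receptors that bind Wnt proteins directly, and many of them are short genes with little or no intron. Of 10 Frizzled genes 3 had regions, beside 35.1% of protein-coding genes and 13.9% of those up to 10 kb long. The 7 regions of these 3 genes were all positive, but 5 of them form 1 run at Fzd4. Fzd1 had 1 region of 601 bp (chr5:4755605-4756205), centred 2.31 kb past the start in a gene of 4.38 kb, with a score of 457 that ranked 126 in the list.

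Fzd4, which encodes the receptor of the Norrin ligand as well as of Wnts, differed from Fzd1 in having 5 weaker regions over 6.50 kb. The first scored 58.8, lay 1.24 kb upstream of the start and is also inside Tmem135. The others scored 72.8, 50.6, 25.1 and 21.0 in order along the gene, at 2.96, 3.43, 4.05 and 5.17 kb. At both genes the promoter window printed above held no region.

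Fzd8 had 1 region of 164 bp (chr18:9214712-9214875) with a score of 158. The other 7 Frizzled genes (Fzd2, Fzd3, Fzd5, Fzd6, Fzd7, Fzd9 and Fzd10) had none within 5 kb. Fzd9 came closest, with a region of -314 (378 bp) 7.18 kb away.

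Among the co-receptors, Lrp5 had 2 positive regions (71.0 and 77.5) and Lrp6 had 1 of each sign, at -104 (137 bp, chr6:134502494-134502630) and 52.5. Lgr4, which encodes one of the R-spondin receptors, had 8 regions spread over its gene of 96.6 kb, 6 of them positive. In order from the start they scored 84.2, 96.6, -22.2, 35.6, 29.4, -67.2, 30.4 and 225. The last, 79.0 kb past the start, spans 246 bp at chr2:109996529-109996774. Lgr4 was therefore strongest toward its far end, and its negative regions were weaker than its 3 strongest positive ones.

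The ROR genes, for receptor tyrosine kinases that bind WNT5A, held most of the negative receptor regions. Ror1 had 9 regions, 6 negative, which scored -43.7, -34.0, 171, -131, 26.5, 31.9, -60.2, -29.3 and -43.6 from the start onward. The strongest of each sign were 373 bp at chr4:100170149-100170521 (171) and 279 bp at chr4:100214827-100215105 (-131). Ror2 had 6 regions, 4 negative, with 48.3, 15.2, -53.6, -46.5, -33.3 and -93.5 from the start inward. The -93.5 region spans 135 bp at chr13:53218177-53218311. In both genes the signs were mixed along the gene, and at Ror2 the 2 regions nearest the start were positive. Without Ror1 and Ror2, 16 of 19 receptor regions were positive. These 2 genes were left out after the values were seen and held 10 of the 13 negative receptor regions, so a rise was fixed in advance.

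The 8 secreted inhibitor genes had 13 regions at 6 members, where 35.1% of protein-coding genes had a region. Of the 13 regions 7 were positive (53.8%, 29.1 to 76.8). Wif1, which encodes a ligand-binding inhibitor, had 4 regions of alternating sign, 138, -260, 46.9 and -69.1 from the start onward. Its -260 region was the widest of all member regions (879 bp, chr10:121055999-121056877), while the 138 region (306 bp, chr10:121041249-121041554) was 7.40 kb past the start. Dkk2 likewise had both signs, 131 (287 bp, chr3:132103208-132103494) and -21.0.

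Genes of the SFRP family, whose products share a Frizzled-like ligand-binding domain, did not share a sign. Sfrp4 had 1 region of 142 (249 bp, chr13:19624169-19624417), Sfrp2 had 34.3 and 78.7 at 1.15 and 2.17 kb past the start, and Sfrp5 had 39.7 at 2.99 kb upstream of it. Sfrp1 was the exception with 3 negative regions of -22.7, -73.0 and -31.3. Dkk1 and Dkk3 had none within 5 kb.

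The destruction complex split by gene. Axin2, a scaffold gene that is itself a target of β-catenin signalling, had 6 negative regions. Of these 4 formed a run of 1.47 kb in the gene, 20.5 to 21.7 kb past the listed start, with scores of -36.5, -165, -54.0 and -328. The strongest spans 320 bp at chr11:108941912-108942231. The other 2, of -64.1 and -61.2, lay close together at the far end of the gene, so all 6 were far from the promoter window printed above. Apc had 2 positive regions 0.605 kb from first to last base, of 112 (260 bp, chr18:34268545-34268804) and 138 (69 bp, chr18:34269081-34269149). The second had an absolute score of 2.01 per base pair, the densest of the 119. Axin1 had no region, and the nearest was 120 kb away.

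The 5 nuclear effector genes had 26 regions at 4 members, 17 of them positive (65.4%, 46.2 to 80.6). These genes are long (median 114 kb), and 86.2% of protein-coding genes over 100 kb had a region. Tcf7l2, a TCF factor gene best known for its link to diabetes risk, had 14 of the 26 regions. From the first start onward they scored 94.7, 33.6, 24.6, -88.2, 187, 94.5, 42.2, 37.4, 31.0, 54.9, 34.3, 150.9, 81.1 and -120. The strongest was 330 bp wide at chr19:55768725-55769054, 27.1 kb past the first start. The 150.9 region (236 bp, chr19:55896578-55896813) was 1.37 kb past the second listed start, far inside the gene, and the -120 region (197 bp, chr19:55909452-55909648) lay beyond it. Without Tcf7l2, 5 of the 12 remaining effector regions were positive. This gene was left out after the values were seen and had 12 positive regions, so a fall was fixed in advance.

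Lef1 leaned the other way, with 4 of 5 regions negative (-86.0, 39.8, -94.6, -43.1 and -99.5 from the start onward). Its lowest, just short of the strong class, was 519 bp wide at chr3:131214129-131214647. Tcf7l1, the family's main repressor, had 3 of each sign. The 3 nearer to its start were positive (39.1, 53.4 and 22.9) and the 3 farther away negative (-22.9, -80.6 and -35.7, the -80.6 region 174 bp wide at chr6:72691900-72692073). Tcf7 had 1 weak region of 20.3. Ctnnb1, which encodes β-catenin, had none, and a weak region of 19.4 stood 9.53 kb away.

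**Figure D2:**
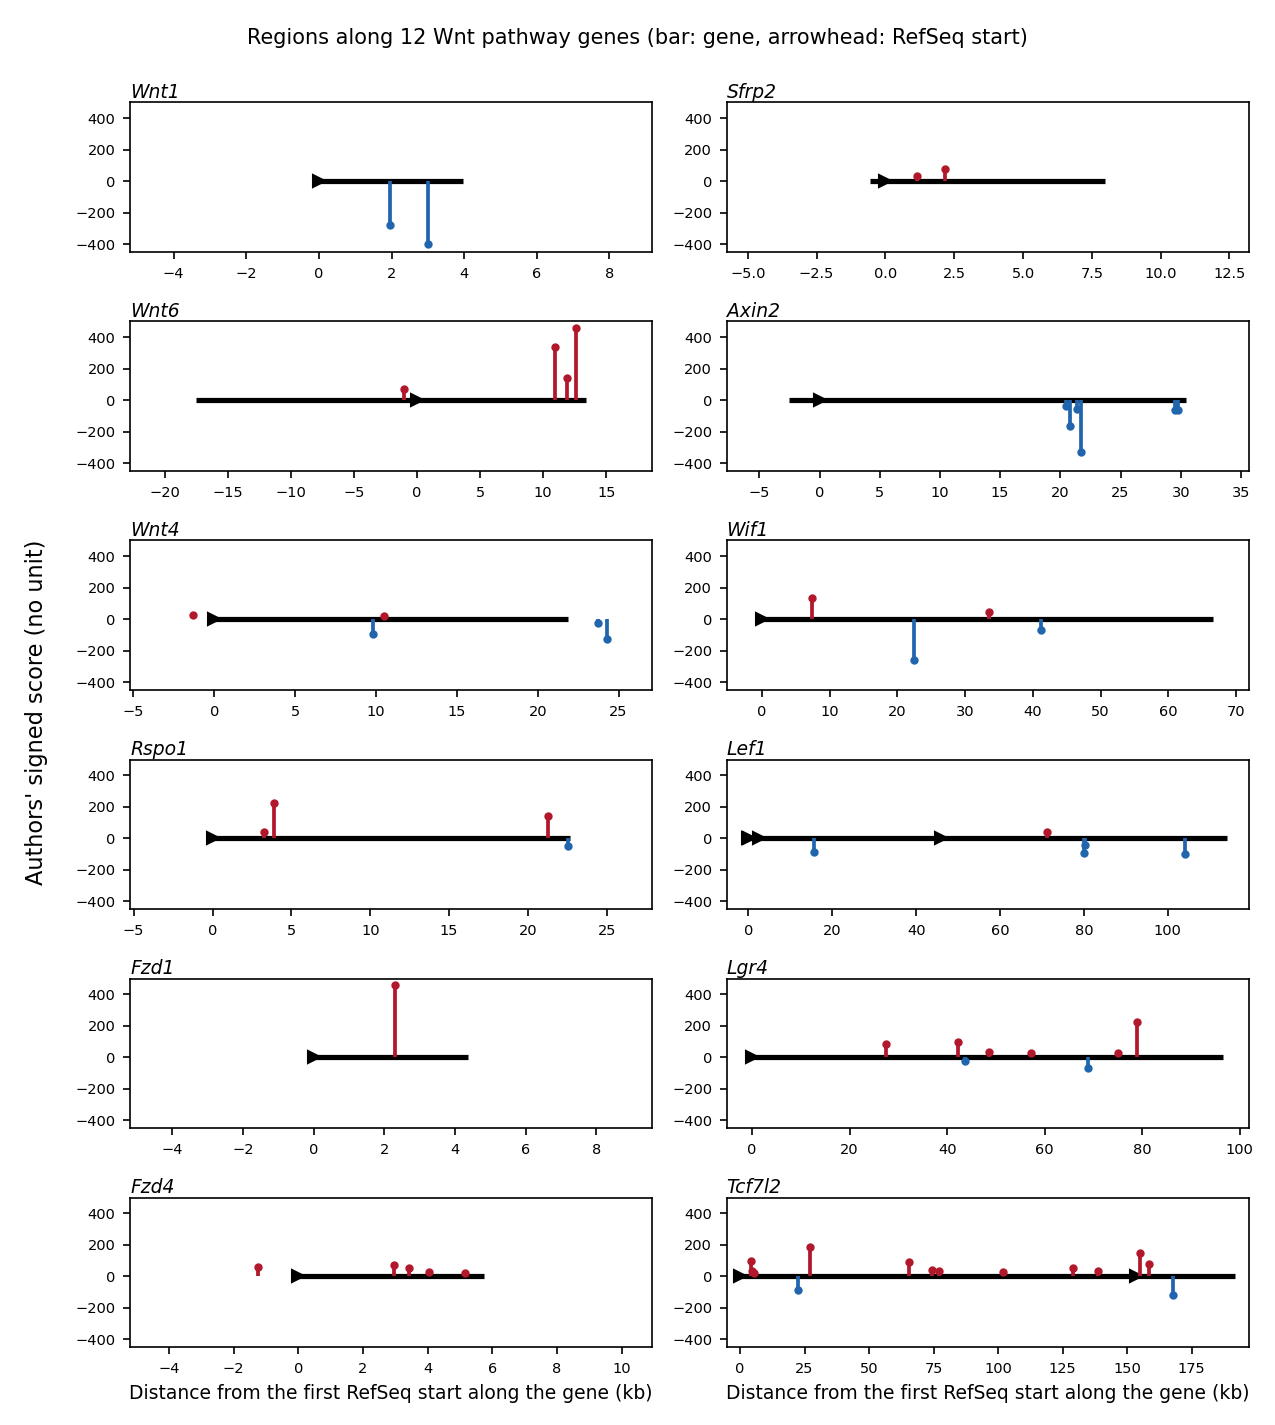
Regions along 12 members, each drawn at its distance from the first listed RefSeq start in the direction of transcription (x axis, kb), with the authors' signed score as height (y axis, no unit, the same scale in each panel). The black bar is the RefSeq gene and arrowheads are listed starts. Wnt6 has 3 tall positive regions at its far end, Axin2 has 6 negative regions far from its start, and Fzd4 has 5 low positive ones.

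The shares of positive regions by role lay between 25.0% for the destruction complex (2 of 8, 7.15 to 59.1) and 65.4% for the nuclear effectors. Ligands, receptors and nuclear effectors stood at similar values, and the interval of each role overlapped that of every other, so no order of the roles can be read from these counts. Counted region by region, the intervals of ligands, receptors and nuclear effectors lay above the 32.6% of the whole list. Neighbouring regions often shared their sign (77.5% of pairs at members), and the 26 effector regions came from only 4 genes. The intervals are therefore too narrow to place a role above the list. Without Tcf7l2, where 12 of 14 regions were positive, the interval of the nuclear effectors was 19.3 to 68.0% on 12 regions. A lower share and a wider interval were fixed in advance by that removal.

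**Figure D3:**
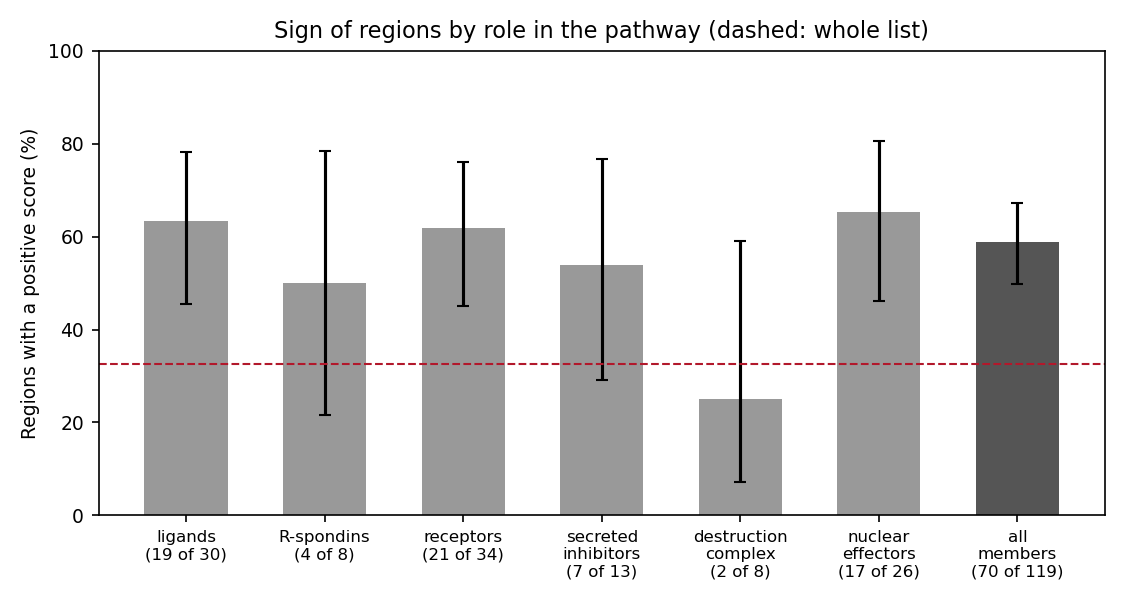
Bars give the percent of regions with a positive score for each role and for all 52 members, with the count of positive regions under each bar and Wilson 95% intervals as error bars. The dashed line is the whole list at 32.6%. The destruction complex is the role below the line (2 of 8 regions positive).

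The sign of member regions varied with their distance from the start. For the 36 members with a listed start, 23 regions had their centre within 5 kb of a start, and 21 of these (91.3%) were positive. Among all protein-coding genes with a listed start, 1118 of 2746 such regions (40.7%) were positive. By gene, 12 of the 36 members had a positive region that near (5.19% of genes) and 1 had a negative one (7.73%). The 12 were Wnt2, Wnt4, Wnt5b, Wnt6, Wnt11, Rspo1, Fzd1, Fzd4, Ror2, Sfrp2, Sfrp5 and Tcf7l2, and the single negative member was Wnt1. The region counted at Wnt5b (49.4) lay near a listed start inside the gene, far from the first one. At Tcf7l2 the regions of 150.9 and 81.1 did so too, and those of 94.7 and 33.6 lay near the first start. The 16 members without a listed start could not be placed, among them Wnt5a with 4 positive regions and Sfrp1 with 3 negative ones.

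At 20 kb or more from the nearest start, 22 of 55 member regions (40.0%) were positive, beside 30.5% over all genes. The 6 regions of Axin2, the 9 of Ror1 and the 4 negative ones of Ror2 lay in this distant class. The split by distance was drawn after the values were seen.

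**Figure D4:**
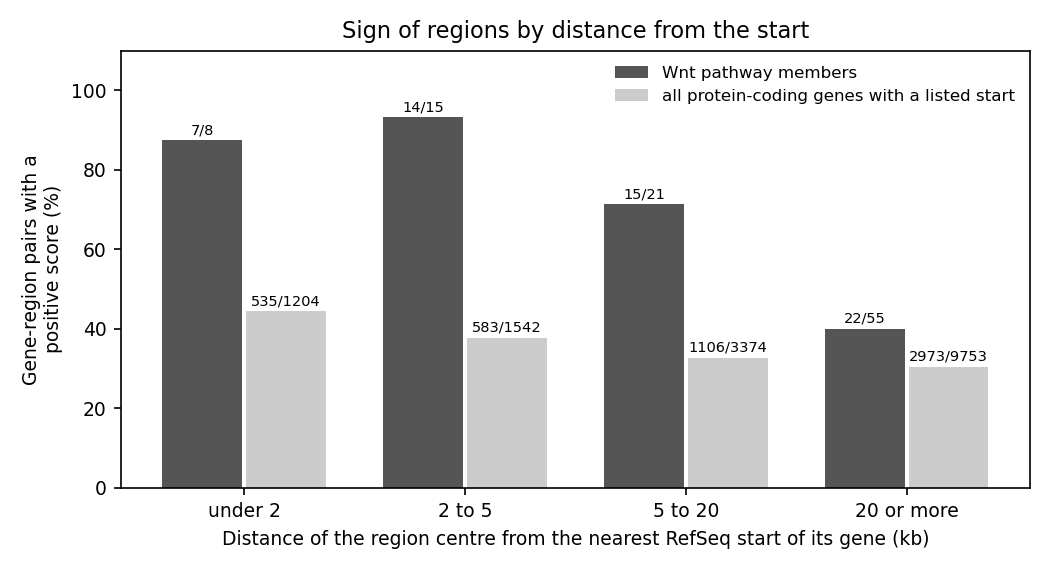
Bars give the percent of gene-region pairs with a positive score in 4 classes of distance between the region's centre and the nearest listed start of its gene (x axis, kb), dark for the members and light for all protein-coding genes with a listed start. Counts above the bars are positive pairs over all pairs. The dark bars stand at 7 of 8 and 14 of 15 within 5 kb and at 22 of 55 from 20 kb on.

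Neighbouring regions at the members, no more than 5 kb apart, shared their sign in 31 of 40 pairs (77.5%), near the 78.6% of the whole list. Of the 14 members with 4 or more regions 4 held 1 sign only (Wnt5a, Wnt6, Fzd4 and Axin2), or 28.6%, beside 22.9% of 1530 protein-coding genes with as many. By sign, 3 of these members (Wnt5a, Wnt6 and Fzd4) held only positive regions and 1 (Axin2) only negative ones, where 74 of the 1530 genes held only positive and 277 only negative regions.

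A separate list of 58 further genes of the pathway holds intracellular carriers such as the Dishevelled and GSK3 genes, surface modulators, planar polarity genes and targets. It was drawn up, like the list of members, with earlier results of these data known. It also holds genes of the same roles as the members, among them the ligand gene Wnt8a, the R-spondin gene Rspo4, the inhibitor genes Frzb, Dkk4 and Sost, and the receptor genes Lgr5, Lgr6, Lrp4 and Ryk. Of the 58 genes 34 had a region (35.1% of protein-coding genes), 18 of them only negative regions, 5 only positive and 11 both. Of their 84 regions 70.2% were negative (59.8 to 79.0), close to the 67.4% of the whole list, where 41.2% (32.7 to 50.2) of the 119 member regions were. Among the genes just named from the members' roles, Lgr5 had 4 positive and 2 negative regions, Ryk 2 positive and Rspo4 1 positive. Frzb and Lgr6 had 1 of each sign, and Wnt8a, Dkk4, Sost and Lrp4 had none. The pooled share is therefore not that of these genes. At Ptk7 all 6 regions were negative, and at Vangl1 5 of 6. The 5 largest absolute scores were -167 at Prickle1 and -153 at Ptk7, both of the planar polarity branch, 152 at the corepressor gene Tle4, 131 at the β-catenin inhibitor gene Ctnnbip1 and 122 at the receptor gene Lgr5. The feedback inhibitor gene Nkd1 had 10 regions, all negative, with -121 the strongest. Of the 1530 protein-coding genes with 4 or more regions, 277 held only negative ones.

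The promoter windows were also searched on both strands for 3 motifs, each on its own. The TCF/LEF core CTTTGA was present in 6 of the 45 member windows (13.3%) and in 16.0% of all windows. These windows belong to Dkk1, Fzd1, Lef1, Ror1, Wnt11 and Wnt5b. The TEAD core GGAATG was present in 2 member windows (4.44%, against 14.7%), and the glucocorticoid receptor core GNACA in 37 (82.2%, against 86.4%). Member windows were richer in G and C (median 67.3%, against 52.7% over all windows). The motif shares were not matched for this, so a lower share cannot be read as fewer sites than such sequence would hold. The windows printed for Wnt6, Wnt1, Fzd4, Axin2 and Tcf7l2 hold no CTTTGA.

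The 5 kb limit fell in a gap. The farthest region counted was that of Sfrp5, 2.88 kb from the gene, and the nearest one left out was a region of 70.3 at 5.75 kb from Wnt5b. A much wider limit still changed the share of signs. With 50 kb on both sides 50.7% of member regions were negative, against 41.2% with 5 kb.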

How the data were processed

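Bisulfite-converted DNA was sequenced from 2 libraries, per the labels' protocols, and 1 list of differentially methylated regions between them was used here. The authors deposited a position and a signed score for each region, with no header. Positions are on mm10, as the submitters' processing notes name it. How reads were aligned, and how regions were called and filtered at what coverage, is not given in the sources read. The score is not a methylation level.

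Genes were matched by symbol (52 of 52) to a RefSeq table of GRCm38.p6, the assembly that mm10 names. Regions overlapping a gene body or 5 kb on both sides by at least 1 bp were counted, positions counting from 1 with the list read as BED. Strand and starts came from RefSeq promoter windows of the same build, read on the gene's strand. They were not listed for Wnt5a, Wnt7b, Wnt10a, Rspo2, Rspo3, Fzd2, Fzd3, Fzd6, Fzd8, Lrp5, Lrp6, Sfrp1, Sfrp4, Dkk3, Axin1 and Apc. The table gives no exons or untranslated regions. Shares carry Wilson 95% intervals (statsmodels 0.14.6, Python 3.11.15), and no p-value was computed. Overlap counting was tested on simulated data.

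Members and lists were chosen with earlier results of these data known. Members with an absolute score of 100 or more, or with 4 or more regions, are given region by region. Widths and positions are printed for their strongest regions only. No sequence of the regions themselves was used. The alternatives tried were other windows, a score and a width minimum, a stricter overlap and the removal of shared regions.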

Additional observations from a re-analysis of the deposited data

How the results depend on the processing

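Depth per library is unknown, so no coverage limit could be varied, and 1 library per group allowed no replicate to be left out. No paired analysis was possible because each group has 1 library and the result comes from no test. Leaving out single genes, taking 1 region per gene, and counting regions near a start, within 5 or 2 kb, were added after seeing the data. Over all settings tried, 89 of 109 values for groups of genes stayed within 1.5 times the reported count or inside the reported interval. The exceptions follow. With 50 kb on both sides there were 215 member regions, 50.7% of them negative, 15 receptor genes with a region and 68.5% of protein-coding genes. With absolute scores of 100 or more there were 31 regions, 32.3% negative, at 20 members. These were 7 ligand, 5 receptor, 3 inhibitor and 1 effector gene among others, beside 10.8% of protein-coding genes and 7 of the other pathway genes. The negative share of the R-spondins was then 0% of 3 regions, too few to limit the share. With widths of 100 bp or more there were 77 regions, and 25.4% of protein-coding genes had one. In gene bodies only, 28.9% of protein-coding genes had a region, and 33.0% without regions lying only in another gene. The negative share of the effectors was 58.3% without Tcf7l2 and that of the receptors 15.8% without Ror1 and Ror2. Over the 24 named members, 36 of 144 region counts moved by more than 1.5 times, most of them with the score minimum (16) or the width minimum (11).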
